A study of Danio rerio with 48 samples.

Results

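Of 21903 transcripts measured in whole adult zebrafish, 66 lost most of their signal in fish exposed to chromium at each of 3 concentrations and were also lower, by less, in fish exposed to the highest concentration of nickel and of cobalt. Members were chosen by their measured values. A transcript was kept where at least 1 group mean reached a log2 intensity of 6.5, which 9416 transcripts did, and where the exposed group mean minus the mean of that metal's 4 control arrays was -1.5 or lower at low, mid and high chromium and -0.5 or lower at high nickel and at high cobalt. The chromium condition alone held 189 transcripts, of which 28 also met the nickel condition only, 36 the cobalt condition only and 59 neither. The differences at low, mid and high chromium, high nickel and high cobalt are therefore given as descriptions without a test.

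The exposed fish met 1 dissolved metal for 24 h in aquaria with flowing water, and their age was 6 to 9 months. The labels give the same 24 h and the same age for the control fish. Measured concentrations in the exposure groups were 56.5, 69.9 and 80.6 mg/L for low, mid and high chromium, 42.4, 51.0 and 64.0 mg/L for low, mid and high nickel, and 39.7, 46.3 and 59.5 mg/L for low, mid and high cobalt. Each of these 9 groups and each of the 3 control groups, which received no added metal, had 4 arrays, 48 in all. Total RNA of ground whole fish was pooled before labelling, and the labels leave out the number of fish in a pool, the form of each metal and whether replicates came from separate tanks. The p-values below measure only how these arrays vary, which may be technical. The control groups of nickel and chromium held the same 4 pools on arrays of their own, while cobalt had 4 control arrays of its own.

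Metals in water reach a fish first at the gill and skin, and then through the blood the liver and kidney. Chromium in its hexavalent form passes into cells through anion transporters and is reduced inside them, with damage to DNA and protein as a known outcome, whereas nickel and cobalt ions can take the place of iron in the enzymes that mark the hypoxia factor HIF for destruction. The labels do not state which form of chromium was used. RNA from a whole fish mixes all organs, so that fewer cells of a type and less RNA per cell cannot be told apart in any value below.

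The files give transcripts by Ensembl or Vega identifier only, 62 and 4 of the 66, and no table used here pairs those identifiers with gene names. Members are therefore named by identifier and no role, position, sequence or cell type is given for any of them. For the same reason the whole-fish label could not be checked against tissue markers, and the other genes of a pathway could not be listed. Each member was read by 2 probes, and its level is the mean of both on the log2 intensity scale. Levels of different transcripts come from different probes and are not compared as abundances.

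All 48 arrays had medians between 5.62 and 5.66, and 66.2% to 68.5% of the probes on an array lay above log2 5, taken here as the background limit because 99.0% of 96 values from 2 rows of dark control spots lay at or below it. The third replicate of high chromium stood apart for the members. It gave the highest of the 4 high-chromium values for 59 of the 66, against 26.5% of all transcripts, and lay above the mean of its 3 companion arrays by a median of 0.84, against -0.005 over all transcripts. That gap was over 1 for 29 members and for 0.461% of all transcripts. On this array too, all 66 members lay below all 4 chromium control arrays. Values at high chromium are given with and without it where it matters.

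Across the 66 members, the median difference from control in the low, mid and high chromium groups was -2.44, -2.46 and -2.51 on the log2 scale, or 5.43, 5.50 and 5.69-fold lower. Single members ranged from -8.49 to -1.55 in the low group, from -8.60 to -1.53 in the mid group and from -7.65 to -1.53 in the high group. A loss of at least 4-fold was measured for 48, 47 and 54 members at low, mid and high chromium, and of at least 8-fold for 19, 21 and 19. The counts at high chromium include the third replicate, so no order of the doses is read from them. All of these counts include ENSDART00000082286, whose probes gave unlike values, as described below. In each chromium group all 4 arrays of all 66 members lay below all 4 control arrays, where 8.35%, 7.83% and 9.92% of all transcripts did so at low, mid and high chromium; the rule fixed the members by these contrasts, so nothing is read from that count. Over all transcripts the same medians were 0.02, 0.02 and 0.01.

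**Figure D1:**
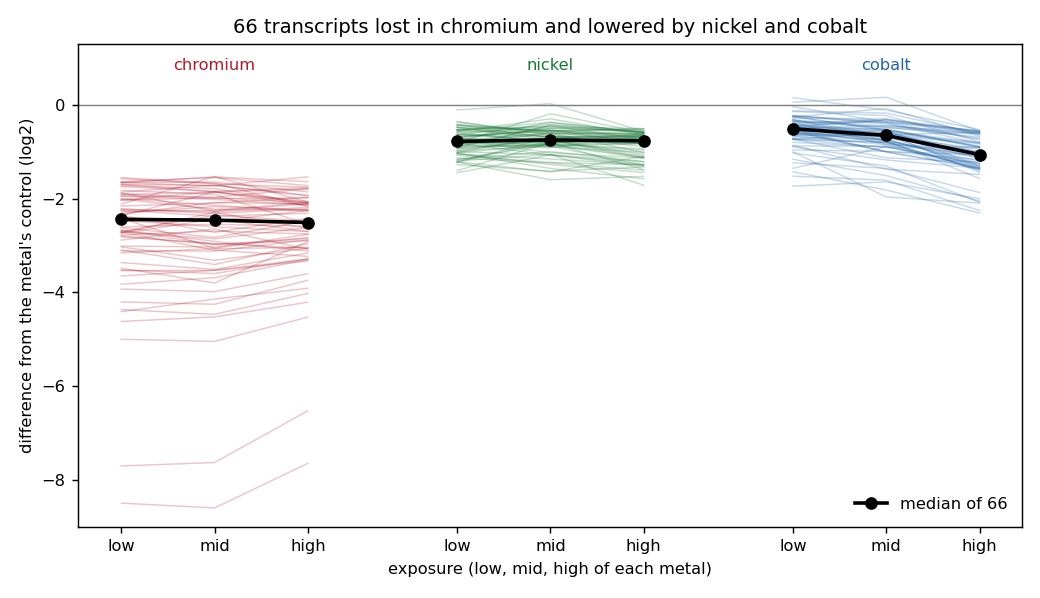
Difference of the exposed group mean from the mean of that metal's control arrays (log2, vertical axis) for each of the 66 transcripts (thin lines) at low, mid and high exposure to chromium, nickel and cobalt (horizontal axis), with the median of the 66 in black. The chromium medians lie at -2.44, -2.46 and -2.51, the nickel medians at -0.78, -0.75 and -0.77, and the cobalt medians at -0.51, -0.65 and -1.06, and 2 transcripts lie far below the rest in chromium.

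The 2 transcripts that lost most were also among the brightest in control fish. ENSDART00000067818 read 5.57, 4.98, 5.31 and 5.09 in the low-chromium arrays, 4.87, 5.86, 4.79 and 5.02 in the mid arrays and 4.67, 5.16, 9.76 and 4.76 in the high arrays, against 13.63, 13.61, 13.83 and 13.87 in the chromium controls. Exposed and control arrays were far apart, and the third high-chromium array alone kept an intermediate level. The group means differed by -8.49, -8.60 and -7.65 at low, mid and high chromium, and by -8.87 at high chromium without that array. With values at or below log2 5 set to 5, the size of the difference was 8.47, 8.50 and 7.51.

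ENSDART00000022268 followed the same course. Its arrays read 5.12, 4.81, 5.09 and 4.83 in the low-chromium group, 4.81, 5.75, 4.75 and 4.82 in the mid group and 4.77, 5.13, 9.84 and 4.81 in the high group, against 12.40, 12.76, 12.76 and 12.73 in the chromium controls. The other exposed arrays lay near the background limit, and the third high-chromium array far above it. The differences were -7.70, -7.63 and -6.53, and -7.76 at high chromium without that array. In high nickel and high cobalt both transcripts were lower than control by 1.51-fold to 1.87-fold only. At high nickel ENSDART00000067818 averaged 13.00 ± 0.16, against 13.60 ± 0.22 in nickel controls, and in the high-cobalt group 12.32 ± 0.17, against 13.11 ± 0.22 in the cobalt controls (SD, n = 4 each). ENSDART00000022268 averaged 11.71 ± 0.14 at high nickel, against 12.53 ± 0.18 in nickel controls, and 11.32 ± 0.09 in the high-cobalt group, against 12.23 ± 0.19 in the cobalt controls (SD, n = 4 each).

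ENSDART00000024328 came next in chromium. Its arrays read 4.80, 4.73, 4.92 and 4.74 in the low-chromium group, 4.71, 4.79, 4.68 and 4.84 in the mid group and 4.73, 4.77, 6.85 and 4.73 in the high group, against 9.50, 9.90, 10.02 and 9.77 in the chromium controls. All 8 arrays at low and mid chromium were at or below log2 5, so the difference there is only a lower bound, of at least 4.80 on the log2 scale at both doses. The other transcripts with all 4 arrays at or below that limit at low and mid chromium were ENSDART00000036208, ENSDART00000054655, ENSDART00000081594, ENSDART00000098700 and ENSDART00000103182, named because of those values. At high chromium the third replicate lay above the limit for all 6.

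The remaining transcripts among the 10 with the largest mean loss in chromium differed from control at low, mid and high chromium as follows. ENSDART00000104074 gave -4.62, -4.52 and -4.21, ENSDART00000081594 gave -4.37, -4.47 and -4.02, and ENSDART00000102690 gave -4.41, -4.14 and -3.91. ENSDART00000105952 gave -4.20, -4.25 and -3.74, and ENSDART00000054655 -3.93, -3.98 and -3.60. ENSDART00000026234 gave -3.83, -3.69 and -3.30, and ENSDART00000104216 -3.65, -3.53 and -3.33. The low and mid values of ENSDART00000081594 and ENSDART00000054655 rest on arrays at or below log2 5, and as bounds are at least 4.22 and 4.24 for ENSDART00000081594 and at least 3.70 and 3.71 for ENSDART00000054655. All 7 were closest to control at high chromium, but that order rested on the third replicate. Without it their values at high chromium ran from -4.63 to -3.69, and 1 of the 7 was closest to control at high chromium while 3 were furthest from it there. Of these 3, ENSDART00000104074 stood at -4.63 at high, against -4.62 at low chromium. ENSDART00000081594 rested on arrays at or below log2 5, with a bound of 4.24 at both mid and high chromium. No order of the doses is read from these counts.

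**Figure D2:**
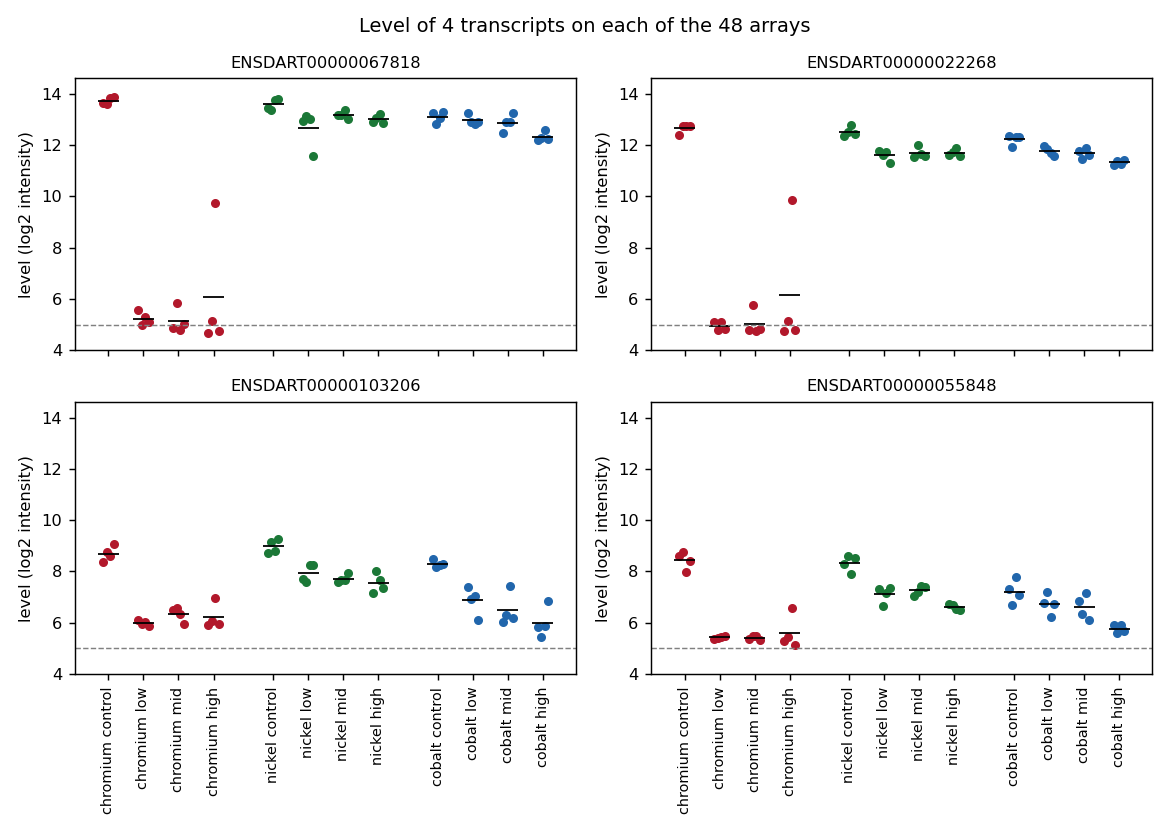
Level (log2 intensity, vertical axis) of 4 transcripts on each of the 48 arrays, by metal and exposure (horizontal axis); points are arrays, bars are group means and the dashed line is the background limit of log2 5. ENSDART00000067818 and ENSDART00000022268 lie at 4.67 to 5.86 on the chromium-exposed arrays other than the third high-chromium replicate. They lie at 9.76 and 9.84 on that array, and above 11 elsewhere. All 4 transcripts have group means below control in nickel and cobalt. Low- and mid-cobalt arrays of ENSDART00000055848 and ENSDART00000067818 overlap their cobalt controls, and low-cobalt arrays of ENSDART00000022268 just reach its cobalt controls.

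Among the members, the size of the loss varied little with the chromium concentration. The rule required the loss at low, mid and high chromium together, which leaves out transcripts lost at some doses only. That favours a flat course, so nothing is read from it about dependence on dose. Members with all arrays at or below the background limit at low and mid chromium also could not show a deeper loss there. The spread between a member's 3 dose differences had a median of 0.26, and it passed 0.5 for 12 members. Mid minus low chromium had a median of -0.06 and high minus low of 0.04, with 29 of 66 members deeper at high than at low. Without the third high-chromium replicate the median difference from control at high chromium was -2.74, the median of high minus low was -0.17 and 54 of 66 members were deeper at high than at low, where 50.8% of all transcripts were. One array thus decided the direction of that comparison. Levels fell at each step of dose for 13 members, against 17.6% of all transcripts, and without that array for 31, against 18.6% of all transcripts. That array was singled out because it was high for most members, so leaving it out lowers their high-chromium means by choice. Nothing is read from the counts without it beside those of all transcripts.

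Member levels in chromium controls ran from 6.74 to 13.73 with a median of 9.45. In fish exposed to chromium the group means spanned 4.75 to 10.59, 4.73 to 10.37 and 4.83 to 10.35 in order of dose. In the same order 24, 24 and 20 members averaged log2 6 or less, so most kept a signal above the limit. ENSDART00000011669, among the 5 brightest in controls, averaged 9.97 ± 0.39, 10.06 ± 0.37 and 10.09 ± 0.72 at low, mid and high chromium, against 13.13 ± 0.16 in chromium controls (SD, n = 4 each). ENSDART00000048838 averaged 10.59 ± 0.56, 10.37 ± 0.41 and 10.35 ± 0.36 at the same doses, against 12.60 ± 0.28 in chromium controls (SD, n = 4 each). No member had an array at or below log2 5 outside the chromium exposures.

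In nickel the same transcripts were lower than control by much less, with similar medians at all doses on the deposited scale. The rule used high nickel, and low and mid nickel share its control arrays, so nothing is read from that course. The median difference in order of dose was -0.78, -0.75 and -0.77, and members ranged from -1.45 to -0.11, from -1.60 to 0.03 and from -1.71 to -0.50. The median over all transcripts was -0.004 at low nickel. Seen per array, the median member lay -0.77 ± 0.12, -0.72 ± 0.09 and -0.82 ± 0.06 from control at low, mid and high nickel (SD, n = 4 each). At high nickel all exposed arrays lay below all control arrays for 57 of the 66, where they did for 8.36% of all transcripts, in a contrast the rule used.

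The largest difference at high nickel was that of ENSDART00000055848. Its arrays read 6.73, 6.71, 6.53 and 6.48 at high nickel, against 8.31, 8.60, 7.89 and 8.52 in nickel controls, so that no exposed array reached a control array. In order of nickel dose it differed from control by -1.20, -1.06 and -1.71. Next at high nickel came ENSDART00000089480 with -1.57, ENSDART00000051611 with -1.52, ENSDART00000103206 with -1.44 and ENSDART00000081594 with -1.39.

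Low and mid nickel were not used to choose the members, but they share their control arrays with high nickel, so calls there describe the members and are not independent of the choice. A moderated linear model (limma) on the 16 nickel arrays, with p-values adjusted by Benjamini-Hochberg over all 21903 transcripts and a threshold of 0.05, called 52 of the 66 lower and 0 higher at low nickel, where 6.51% of all transcripts were called lower and 7.1% higher. At mid nickel it called 51 lower and 0 higher, where 4.99% and 6.09% of all transcripts were. All exposed arrays lay below all control arrays for 51 members at low nickel and 51 at mid nickel, against 7.46% and 7.13% of all transcripts. Among the 9416 transcripts past the level limit, which all members passed, the shares were 13.1% and 12.0%. Fitted and adjusted over probes, with a transcript counted where all its probes were called lower, 42 members were called at low and 33 at mid nickel, where 2.47% and 1.63% of all transcripts were.

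At low nickel the largest called difference without overlap was that of ENSDART00000024328, with arrays at 8.28, 8.10, 8.02 and 8.04, against 9.48, 9.40, 9.73 and 9.63 in nickel controls. Its log2 fold change was -1.45 (SE 0.13, limma adjusted p = 5.22e-06). ENSDART00000010999 followed with -1.40 (SE 0.24, limma adjusted p = 0.00098), then ENSDART00000054655 with -1.27 (SE 0.28, limma adjusted p = 0.00541). ENSDART00000098700 had -1.23 and ENSDART00000051611 -1.22 at low nickel, with limma adjusted p-values of 0.00731 and 9.31e-05.

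At mid nickel ENSDART00000051611 was lowest, with arrays at 6.56, 6.64, 6.60 and 6.98, against 8.16, 8.44, 8.49 and 8.09 in nickel controls. Its log2 fold change was -1.60 (SE 0.16, limma adjusted p = 1.44e-05), and the 2 groups were more than 1 apart at their nearest arrays. ENSDART00000102690 had -1.43, ENSDART00000054655 -1.42, ENSDART00000089480 -1.36 and ENSDART00000103206 -1.27 at mid nickel, with limma adjusted p-values between 0.0002 and 0.00339.

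In cobalt the members lay furthest from control at the high dose, which the rule used. The median difference of the members in order of cobalt dose was -0.51, -0.65 and -1.06, and members ranged from -1.73 to 0.15, from -1.96 to 0.16 and from -2.31 to -0.53. Per array the median member lay -0.55 ± 0.20, -0.66 ± 0.21 and -1.02 ± 0.13 from control at low, mid and high cobalt (SD, n = 4 each). High cobalt lay below low cobalt for 64 of the 66, by a median of -0.50, where 50.5% of all transcripts did; the rule used high cobalt. A step down at each dose was seen for 54 members in cobalt, against 20.9% of all transcripts, and for 18 in nickel, against 18.5% of all transcripts. High lay below mid for 65 members in cobalt and 49 in nickel, against 51.0% and 50.2% of all transcripts. The rule used both high groups, so nothing is read from these counts.

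The largest difference at high cobalt was that of ENSDART00000103206. Its arrays read 7.38, 6.94, 7.04 and 6.12 in the low-cobalt group, 6.04, 6.31, 7.42 and 6.17 in the mid group and 5.84, 5.43, 5.86 and 6.84 in the high group, against 8.47, 8.17, 8.26 and 8.31 in cobalt controls. No exposed array reached a control array, although arrays of one dose lay up to the level of another dose. Its difference at high cobalt was -2.31, against -2.48 at high chromium and -2.73 at high chromium without the third replicate. ENSDART00000089480 gave -2.25, ENSDART00000004756 -2.09, ENSDART00000024350 -2.08 and ENSDART00000104623 -2.05 at high cobalt.

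Low and mid cobalt likewise share their controls with high cobalt. The model on the 16 cobalt arrays called 28 members lower and 0 higher at low cobalt, where 4.4% of all transcripts were called lower and 5.25% higher. At mid cobalt it called 39 lower and 0 higher, where 5.71% and 6.25% of all transcripts were. All exposed arrays lay below all control arrays for 32 members at low and 37 at mid cobalt, against 7.05% and 8.2% of all transcripts. Among the 9416 transcripts past the level limit the shares were 12.0% and 14.1%. Over probes, counted in the same way, 15 members were called at low and 20 at mid cobalt, where 1.45% and 1.96% of all transcripts were.

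ENSDART00000040786 was lowest at low cobalt, with arrays at 6.06, 6.06, 5.84 and 6.66, against 7.76, 7.76, 7.89 and 8.15 in cobalt controls. Its log2 fold change was -1.73 at low cobalt (SE 0.17, limma adjusted p = 1.48e-05) and -1.64 at mid cobalt (SE 0.17, limma adjusted p = 2.02e-05), with no overlap at either dose. ENSDART00000089480 had -1.52, ENSDART00000103206 -1.43, ENSDART00000052641 -1.35 and ENSDART00000018578 -1.23 at low cobalt, with limma adjusted p-values between 0.000441 and 0.012.

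ENSDART00000004756 was lowest at mid cobalt, with arrays at 8.03, 7.82, 8.35 and 7.52, against 10.17, 9.76, 9.60 and 10.06 in cobalt controls. The arrays did not overlap, and the log2 fold change was -1.96 (SE 0.26, limma adjusted p = 0.000139). ENSDART00000103206 had -1.82, ENSDART00000089480 -1.61 and ENSDART00000104623 -1.51 at mid cobalt, with limma adjusted p-values of 0.0019, 0.00074 and 0.000247.

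**Figure D3:**
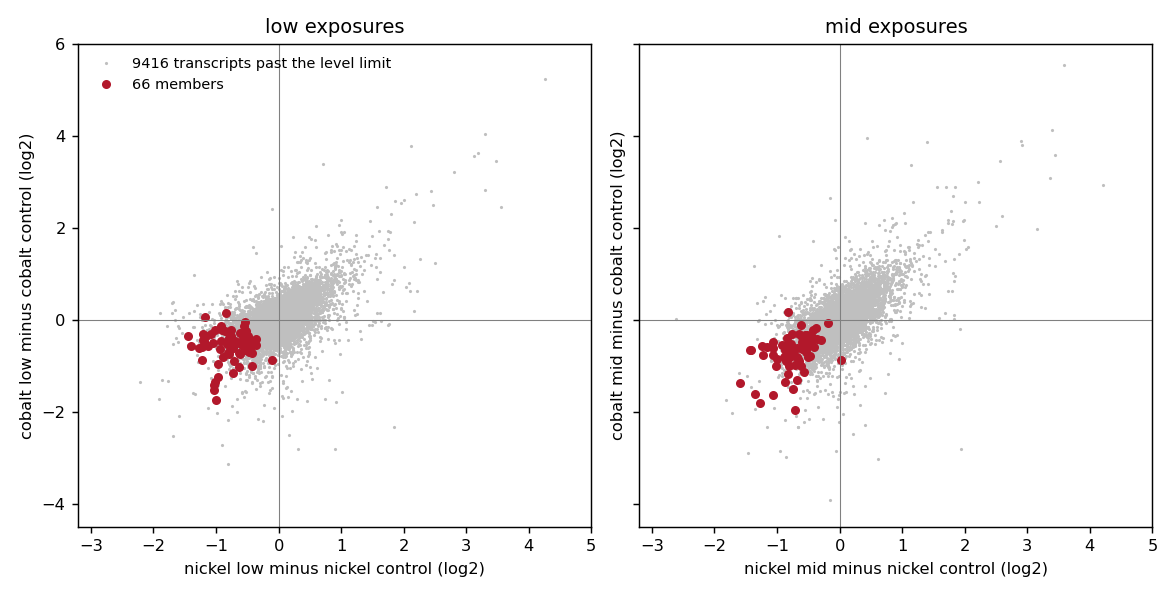
Difference from control (log2) in cobalt (vertical axis) against nickel (horizontal axis) at low (left) and mid (right) exposure, for the 66 members in red over the 9416 transcripts past the level limit in grey. Almost all members lie at the lower left of both panels, with medians of -0.78 in nickel and -0.51 in cobalt at low exposure and -0.75 and -0.65 at mid exposure.

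Of the members, 6 were called lower in none of the 4 low and mid comparisons with control, where 88.2% of all transcripts were not, namely ENSDART00000011186, ENSDART00000048838, ENSDART00000082286, ENSDART00000103182, ENSDART00000104216 and OTTDART00000026024. Only 3 members were at or above control in any group. ENSDART00000063058 stood at 0.03 at mid nickel, ENSDART00000077503 at 0.15 at low cobalt, and ENSDART00000103182 at 0.06 at low and 0.16 at mid cobalt.

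Mid against low exposure is the comparison within a metal that the rule did not touch. In nickel, mid minus low had a median of 0.00 over the members, 33 of the 66 were below 0, and limma called 0 members, with 1 lower and 6 higher at an unadjusted p under 0.05. Over all transcripts limma called 0.00457% lower and 0.0183% higher in that comparison, with 738 lower and 905 higher unadjusted. In cobalt, mid minus low had a median of -0.12, 54 of the 66 were below 0 where 50.0% of all transcripts were, and limma called 0 members, with 8 lower and 0 higher at an unadjusted p under 0.05. It called 0 transcripts in all there, with 582 lower and 499 higher unadjusted. Each of 4 single arrays, when left out, moved the cobalt median by over 1.5 times without turning its sign: it was -0.23 without the third and -0.08 without the second mid-cobalt array, and -0.07 without the first and -0.19 without the fourth low-cobalt array. The third mid-cobalt array was the highest of its group for 50 of the 66 members, where it was for 24.6% of all transcripts. Mid cobalt lay below low cobalt on all arrays for 4 members, against 1.5% of all transcripts, and mid nickel below low nickel for 0, against 2.03%. The difference between the metals in mid minus low, fitted as an interaction in limma, called 0 members, the lowest adjusted p being 0.364, and 0.0137% of all transcripts. At an unadjusted p under 0.05 it held 3 members and 1434 transcripts in all.

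The largest step from low to mid cobalt was that of ENSDART00000004756, with arrays at 8.03, 7.82, 8.35 and 7.52 at mid, against 8.52, 9.23, 9.06 and 8.77 at low cobalt. The groups did not overlap, and the log2 fold change was -0.96 (SE 0.26), which did not pass after adjustment (limma adjusted p = 0.897).

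The order of the metals was the same for nearly all members at the top but not below it. The loss was deeper in low chromium than in low nickel for all 66, and deeper in high chromium than in high cobalt for 65, as the thresholds of the rule favour. The exception was ENSDART00000018578, at -1.87 in high cobalt and -1.79 in high chromium. That order rested on the third high-chromium replicate, without which this transcript stood at -2.04 in high chromium. High cobalt lay below high nickel for 44 of 66, whereas low nickel lay below low cobalt for 46 and mid nickel below mid cobalt for 38. Chromium, nickel and cobalt concentrations differed at each named dose, so these values stand side by side without a comparison of the metals.

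Over the 66 members Spearman's rho was -0.14 between low chromium and high cobalt, 0.34 between high nickel and high cobalt, -0.01 between low nickel and low cobalt and 0.41 between mid nickel and mid cobalt, given as descriptions over transcripts that share arrays and a threshold. ENSDART00000067818, lowest of all in chromium, was at -0.14 at low and -0.23 at mid cobalt. ENSDART00000004756 was at -2.33 at low chromium and had the next lowest value in high cobalt after ENSDART00000103206 and ENSDART00000089480.

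Starting levels were not equal in the control groups. Members averaged lower in cobalt controls than in the controls shared by nickel and chromium for 57 of 66, by a median of -0.39, against 49.2% and 0.002 over all transcripts. The rule took differences from these same control arrays, so that gap is not independent of the choice of members. The median member level was 9.04 in cobalt controls, 9.38 in nickel controls and 9.45 in chromium controls. Chromium- and nickel-labelled arrays of the same pools differed for a member by a median of 0.14 and by at most 0.62, against a median of 0.07 over all transcripts. The part of these differences in the results was not tested.

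**Figure D4:**
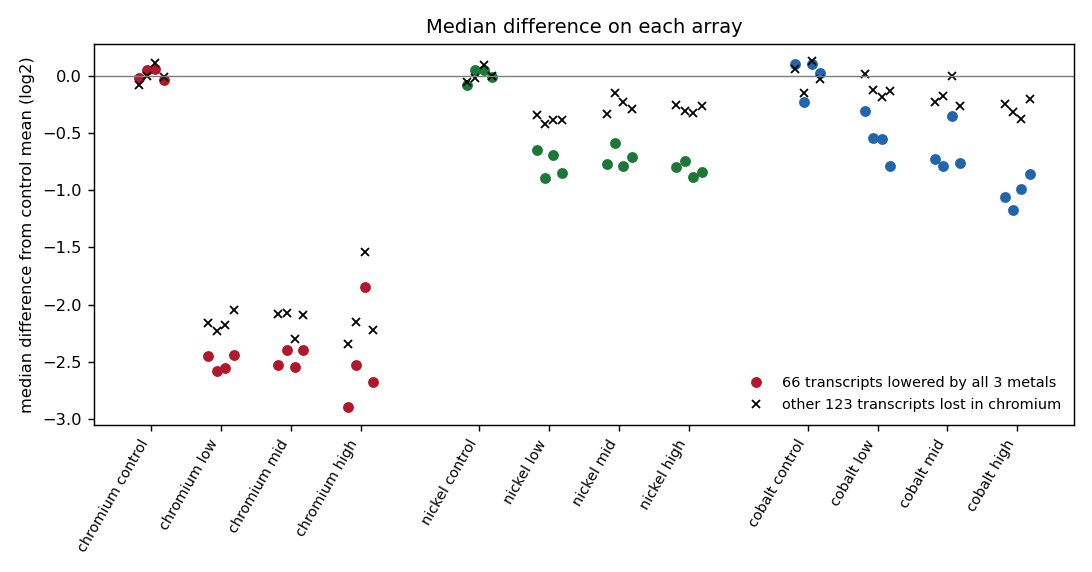
Median difference from the mean of the metal's control arrays (log2, vertical axis) on each of the 48 arrays, by group (horizontal axis), for the 66 members (coloured circles) and the other 123 transcripts lost at all chromium doses (crosses). The third high-chromium array stands at -1.85 for the members, against -2.90, -2.52 and -2.68 on the other high-chromium arrays. On every exposed array the circle lies below the cross of the same array.

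Set against the other 123 transcripts that were lost at all chromium doses but missed a nickel or cobalt threshold, members had somewhat deeper losses in chromium, with medians of -2.44, -2.46 and -2.51 for members and -2.11, -2.12 and -2.07 for the others at low, mid and high. At low and mid nickel the medians were -0.78 and -0.75 for members and -0.38 and -0.24 for the others. At low and mid cobalt they were -0.51 and -0.65 for members and -0.08 and -0.18 for the others. The choice by high nickel and high cobalt, which share controls with these groups, separates both sets, so no test was made. The third high-chromium array was also highest for 111 of the other 123, with a median gap of 0.71.

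The transcripts nearest to a threshold were picked for that, so their values lie close together on both sides of the edge of the set by choice. Just inside it, ENSDART00000010246 was at -0.504, ENSDART00000091094 at -0.514 and ENSDART00000047195 at -0.515 in high nickel. Just outside, ENSDART00000057289 was at -0.499 and ENSDART00000027393 at -0.493 in high nickel, and ENSDART00000026629 at -1.49 in mid chromium.

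The probes of a member mostly gave like values. The gap between them in the low-chromium difference had a median of 0.22, and it passed 0.5 for 19 members and 1 for 5. Both probes were lower in all 9 exposed groups for 59 members, and both met the whole rule on their own for 40. In 7 of the other 26 a probe missed a chromium threshold. The clearest case was ENSDART00000082286, among the brightest members. Its first probe differed from control by -7.06, -7.09 and -6.11 at low, mid and high chromium and its second by 0.02, -0.10 and -0.45, from control levels of 12.43 and 12.29. The chromium loss of that transcript was therefore measured by a single probe. In ENSDART00000010999 the probes gave -1.53 and -3.70 at low chromium, both below control. Probes of 13 members carry a suffix with x or y whose meaning the sources used here do not give.

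**Figure D5:**
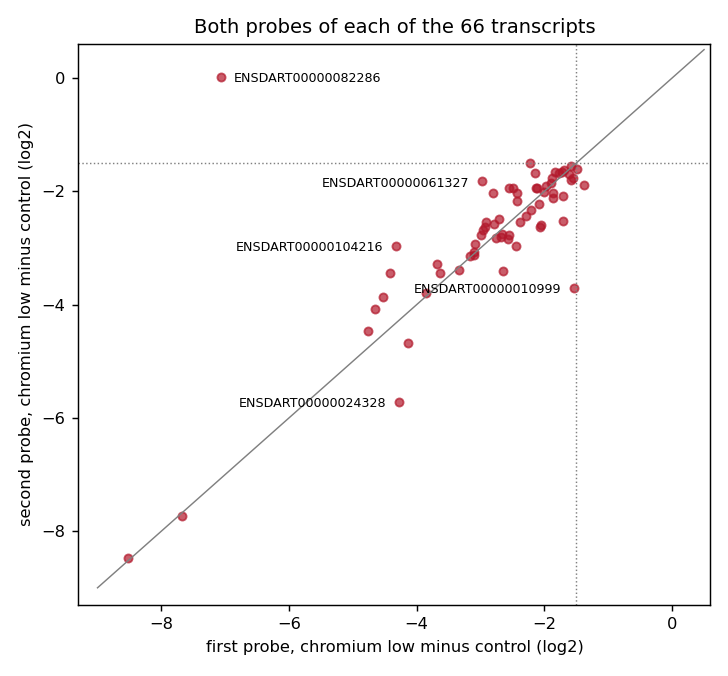
Low-chromium difference from control (log2) of the second probe (vertical axis) against the first (horizontal axis) for each of the 66 transcripts; the diagonal marks equal values and dotted lines the -1.5 threshold. The 5 transcripts whose probes differ by over 1 are labelled, and ENSDART00000082286 stands alone with -7.06 on one probe and 0.02 on the other.

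Members also moved together within groups, as did the other 123 transcripts lost in chromium. The rule did not use the deviations from group means directly, but both sets were chosen by their loss in chromium. The third high-chromium array lay above its group mean by a median of 0.63 for members and 0.53 for the other 123. Correlations that include high chromium are therefore not independent of the choice. Transcripts past the level limit were not chosen by that loss. Their median SD in chromium controls was 0.15, against 0.25 for members. Over 2145 pairs of members the median Pearson correlation across the 48 arrays was 0.32, against -0.001 for transcripts past the level limit and 0.25 for the other 123. It was 0.50 over the 16 chromium arrays, 0.11 over the nickel and 0.31 over the cobalt arrays, and 0.17 over the 44 arrays without high chromium. For the other 123 it was 0.46, 0.06, 0.14 and 0.10 on the same arrays. Over the 12 control arrays it was 0.15 for members and 0.16 for the other 123. These are descriptions over arrays that share pools and a common processing. A correlation of at least 0.8 was reached by 11 pairs, and by 4 without high chromium. ENSDART00000022268 and ENSDART00000067818 had 0.95, and 0.65 without high chromium. ENSDART00000089480 and ENSDART00000103206 had 0.90 and kept 0.89, and ENSDART00000054655 and ENSDART00000081594 had 0.92 and kept 0.89. ENSDART00000052050 and ENSDART00000098690 had 0.90 and kept 0.81, and ENSDART00000036208 and ENSDART00000098700 had 0.81 and kept 0.80. Whether the transcripts of such a pair belong to 1 gene could not be checked, because the identifiers were not paired with genes.

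The deposited values bring all arrays to nearly one distribution, so they cannot show a shift of all transcripts at once. The 6 rows of E1A spike-in controls gave another scale. Scaled to them, the median over all transcripts moved by up to 0.25, at high cobalt, and the members' median differences became -2.39, -2.39 and -2.36 in low, mid and high chromium, -0.73, -0.54 and -0.56 in nickel and -0.44, -0.60 and -0.81 in cobalt. All 66 stayed below control in the 3 chromium groups, low and high nickel and high cobalt, as did 64 at mid nickel, 63 at low cobalt and 65 at mid cobalt. Calls of lower members became 48 at low nickel, 34 at mid nickel, 20 at low cobalt and 32 at mid cobalt, with 2.68%, 0.936%, 2.32% and 3.34% of all transcripts called lower. Lower calls made up 34.1%, 8.28%, 30.6% and 35.8% of all calls on that scale in these 4 comparisons, against 47.8%, 45%, 45.6% and 47.7% on the deposited scale. The spike-in rows themselves averaged 8.45 to 8.69 on the cobalt arrays and 10.73 to 10.96 on the others.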

How the data were processed

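RNA was labelled with Cy3 and hybridised to Agilent one-colour arrays, per the labels' protocols. The authors deposited log2 intensity values per probe, a scale inferred from their range. The sources used here do not give the scanner, background correction or normalization. Of the rows, 43714 were probes, and 61 control spots did not enter the tests. Probes of a transcript were averaged, giving 21903 transcripts. No table used here pairs these identifiers with gene names, so 19 gene lists that had been drawn up were not run and no sequence is shown.

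The 66 members, the lists and the tests were chosen with earlier results of these data known. In R 4.3.3 with limma 3.58.1, lmFit and eBayes were run on the 16 arrays of a metal with a term per group, and on 48 arrays for the interaction. Benjamini-Hochberg adjustment of p-values ran over all transcripts, with a threshold of 0.05. Tables were made in Python 3.11.15 with pandas 2.3.3 and numpy 2.4.6. The fit was tested on simulated data. The number of arrays limits the precision. Transcripts named are the 10 most lowered by chromium, the 5 most lowered at high nickel and at high cobalt, the 5 brightest in chromium controls, up to 5 of the largest called without overlap per comparison, and the 3 nearest to each side of the rule; those named for another reason were chosen after their values were seen. Alternatives were a filter on dim transcripts, other normalizations, a replicate block, another variance model, probes in place of transcripts, a single fit, a floor at log2 5, leaving out arrays, other choices of controls, probes and level in the rule, and spike-in scaling, which was added after seeing the data.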

Additional observations from a re-analysis of the deposited data

Results flagged for a closer look

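In groups of 4 arrays, a level was looked at again where its highest or lowest array stood off from the nearest other by more of the group's range than Dixon's critical value allows. Of 108 groups tested, which cover the median of the members and 8 transcripts, 11 did so, and chance gives about 1 in 20. The share of the range taken by the gap was 0.865 for the members' median at mid cobalt, where the third replicate stood at -0.35 from control and the others between -0.79 and -0.73. At high chromium the third replicate stood off for ENSDART00000067818 (0.905), ENSDART00000022268 (0.929), ENSDART00000024328 (0.981) and ENSDART00000103206 (0.848), each time above its companions. ENSDART00000103206 read 6.98 there, against 5.90 to 6.06 on the other 3 arrays. ENSDART00000022268 also had its second mid-chromium array high at 5.75 (0.929), its first chromium control low at 12.40 (0.899) and its second cobalt control low at 11.95 (0.84). At low nickel the fourth array of ENSDART00000067818 was low at 11.57, against 12.94 to 13.15 (0.871), the first of ENSDART00000051611 was high at 7.60, against 6.84 to 6.96 (0.84), and the second of ENSDART00000040786 was the highest, against 7.04 to 7.09 (0.887). What set these arrays apart was not tested.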

How the results depend on the processing

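The 66 transcripts that met the rule became 40 where both probes had to meet it and 28 on the spike-in scale, a choice made after seeing the data. The other changes of the rule gave 66 to 73 transcripts, and leaving out arrays gave 54 to 70. With controls of the other label 67 met it, of which 58 were shared, and with the brightest probe 73, of which 56 were shared. Over probes in place of transcripts, where a member counts if both its probes are called, calls of lower members were 33 against 51 at mid nickel, 15 against 28 at low cobalt and 20 against 39 at mid cobalt. Spike-in scaling moved the members' median to -0.54 at mid nickel, and in mid against low nickel it gave 1 call and a median of 0.15. Leaving out single replicates gave 49 to 56 calls at low nickel, 41 to 52 at mid nickel, 20 to 29 at low cobalt, 27 to 45 at mid cobalt, and 0 in mid against low of either metal. The members' medians then ran from -0.83 to -0.70, from -0.77 to -0.66, from -0.59 to -0.44 and from -0.78 to -0.61 in the 4 comparisons with control, from -0.05 to 0.06 in mid against low nickel and from -0.23 to -0.07 in mid against low cobalt. Over all transcripts, calls at low nickel numbered 1725 on the spike-in scale against 2981, and in mid against low nickel between 1 and 26 over the alternatives against 5. In mid against low cobalt there was 1 call in the fit of 48 arrays and 0 to 2 with a replicate left out, against 0. All 20 differences of named transcripts with control kept their direction and their call under every one of 320 alternative values, the highest limma adjusted p being 0.0389. These 20 were picked as the largest called without overlap, which favours such stability, so nothing is read from it for the other members. Probes in place of transcripts were not among the 320.

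Replicate numbers were not taken to pair the arrays, since not every same-numbered pair correlated above 0.1: they correlated between -0.17 and 0.25 in chromium, -0.16 and 0.22 in nickel and -0.13 and 0.28 in cobalt, and 4, 7 and 8 of 16 correlated best with their own number, where 4 of 16 would by chance with 4 numbers. Whether the nickel and cobalt numbers mark something shared is not settled. With the number as a replicate block, calls were 54 at low nickel, 50 at mid nickel, 28 at low cobalt, 39 at mid cobalt, 0 in mid against low nickel and 0 in mid against low cobalt. The members' medians could not change with the block, because every group holds each replicate number. Signals at or below log2 5 limit how deep the loss of the dimmest members in chromium can be read.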
